A study of Mus musculus with 4 samples.

Results

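The 9 genes described here make, branch and break down glycogen, the branched glucose polymer that animal cells keep as a carbohydrate store. They were chosen by symbol in the deposited table (Gyg, Ugp2, Gys1, Gbe1, Pygb, Pygl, Pygm, Ppp1r3c and Epm2a), and all 9 were found among its 55487 genes. Poly(A) RNA had been sequenced from tumours taken out 1 day after 2000000 AXT cells in matrigel had been placed in C57BL/6scid mice, which lack functional T and B lymphocytes. AXT is a mouse osteosarcoma line that goes back to bone marrow stromal cells lacking Ink4a/Arf and overexpressing c-MYC, a background that both groups share. The 1 mock library came from Mock AXT cells with the label WT. The 3 knockout libraries came from lines labelled HIF-1alpha KO, in which the gene of the oxygen-regulated transcription factor HIF-1alpha was targeted. The labels name these lines HIF-1alphaKO AXT1-1, HIF-1alphaKO AXT1-2 and HIF-1alphaKO AXT2, while the table names them c11, c15 and c22, and the sources used here do not pair the sets of names. These sources also do not give the age of the mice, how many animals a tumour sample came from, or whether a line is a single clone.

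Glycogen synthesis starts from glucose 6-phosphate, which a phosphoglucomutase turns into glucose 1-phosphate and UDP-glucose pyrophosphorylase (Ugp2) into UDP-glucose. Glycogenin (Gyg) builds the primer, glycogen synthase (Gys1 outside the liver) extends the chains, and the branching enzyme (Gbe1) adds branch points. Phosphorylases (Pygb, Pygm and Pygl, the isoforms named for brain, muscle and liver) release glucose 1-phosphate again. Ppp1r3c encodes the protein also called PTG, a subunit that brings protein phosphatase 1 to glycogen, and Epm2a encodes laforin, a glycogen phosphatase. Several of these genes, GYS1 and PPP1R3C among them, have been described as induced by hypoxia in other cells.

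Total counts ran from 12383719 to 13193264 per library, and a count of 0 allowed up to 0.228 to 0.242 CPM, for counting error only. CPM is the count over the library size in units of 1000000 reads, after scaling by the trimmed mean of M values (TMM). The targeted gene Hif1a had a mock level of 107 CPM, and c11, c15 and c22 had 103, 98.9 and 22.7 CPM, so RNA from the locus was near the mock level in c11 and c15. A count over the whole gene does not show whether protein was made, and it did not check the labels of those 2 libraries. Of 7 osteoblast lineage markers all were detected in mock, Runx2 at 244 CPM and Sp7 at 177 CPM, while Bglap was at 1.45 CPM there and at 0 in c11. RNA of host tissue markers differed between the libraries: skeletal muscle markers summed to 135 CPM in mock, and c11, c15 and c22 had 5.73, 1.52 and 26.9 CPM. Erythroid markers summed to 116 CPM in mock, and the same knockout libraries had 1.61, 4.25 and 41.7 CPM. Summed macrophage markers were at 790 CPM in mock and between 238 and 432 CPM in the knockout libraries. In such bulk samples, fewer cells of a type and less RNA per cell cannot be told apart.

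The promoters of the members at the extremes are shown first, because HIF binds DNA at short elements with the core ACGTG or GCGTG. Both cores were searched on both strands in the 250 bases upstream of each RefSeq start (GRCm38.p6, the build of the deposited coordinates). ACGTG was present in 16.6% of 32851 promoters of that length and GCGTG in 28.2%. ACGTG also lies within CACGTG, the E-box that MYC and other factors bind, which 6.02% held, and that palindrome counts as an ACGTG match on each strand. Below, matches to either core are in capitals and each sequence runs 5′ to 3′ on the strand of its gene, ending just before the start. Ppp1r3c is shown for the lowest fitted fold change of the 9 members, Gys1 for the highest mock level per length, Ugp2 for the highest fitted fold change, and Pgm1, a phosphoglucomutase gene from the wider pathway, for its low level in the knockout libraries.
Ppp1r3c, chr19:36736605-36736854, minus strand: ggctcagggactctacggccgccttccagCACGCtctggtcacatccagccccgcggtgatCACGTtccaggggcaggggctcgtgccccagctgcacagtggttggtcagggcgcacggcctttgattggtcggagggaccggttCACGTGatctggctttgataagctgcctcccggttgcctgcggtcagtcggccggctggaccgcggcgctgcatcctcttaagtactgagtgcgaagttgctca
Gys1, chr7:45434589-45434838, plus strand: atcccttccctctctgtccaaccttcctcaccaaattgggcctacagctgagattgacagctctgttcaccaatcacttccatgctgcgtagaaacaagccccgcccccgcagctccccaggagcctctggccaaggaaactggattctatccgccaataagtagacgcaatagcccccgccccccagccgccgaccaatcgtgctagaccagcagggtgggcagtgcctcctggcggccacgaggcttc
Ugp2, chr11:21371268-21371517, minus strand: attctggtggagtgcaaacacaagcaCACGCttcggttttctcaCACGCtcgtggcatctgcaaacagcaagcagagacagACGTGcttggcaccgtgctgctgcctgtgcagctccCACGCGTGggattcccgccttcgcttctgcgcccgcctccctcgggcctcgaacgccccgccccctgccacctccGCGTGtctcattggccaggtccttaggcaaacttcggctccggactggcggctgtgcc
Pgm1, chr4:99929201-99929450, plus strand: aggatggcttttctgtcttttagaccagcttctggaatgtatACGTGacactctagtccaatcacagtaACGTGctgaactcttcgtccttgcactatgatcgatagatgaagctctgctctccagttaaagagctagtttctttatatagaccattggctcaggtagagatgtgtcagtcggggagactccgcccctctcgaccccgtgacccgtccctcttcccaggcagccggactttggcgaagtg

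Ppp1r3c held 3 matches to ACGTG, of which 2 came from 1 palindrome CACGTG starting 104 bases upstream, and 3 or more were found in 1.22% of all promoters. Gys1 held no match to either core in this window, nor did Gbe1. Ugp2 held 1 match to ACGTG and 5 to GCGTG before its outer start, and none before a second RefSeq start. Pgm1 held 2 matches to ACGTG, and 2 or more were found in 6.81% of all promoters. Of the 9 members 6 had ACGTG and 7 had GCGTG in a window, and those with matches included genes with higher and with lower values in the knockout libraries. These counts are per gene over 10 windows, whereas the shares over all promoters are per window, so they are not in the same unit. For Pygl the RefSeq start lies 3805 bases inside the gene's annotated start, so another start may be in use in these cells. The shares over all promoters are given for scale and are no test, since Ppp1r3c and Pgm1 were shown for their low knockout values. A match is a description of the letters, and binding was not measured.

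The RNA of these genes was compared between tumours of the knockout lines and the lone mock tumour library soon after implantation. With a single mock library, dependence on HIF-1alpha cannot be separated from differences of line, tumour or host tissue content. No member passed an adjusted p of 0.05 in edgeR's quasi-likelihood test over 15706 genes, where 0% of all genes tested were called higher and 0.00637% lower. DESeq2 called no member either, against 0.306% of all genes called higher and 0.42% lower, and limma-voom called no gene in either direction. At an unadjusted edgeR p under 0.05 there was 1 member, Ppp1r3c on the lower side, against 2.56% of all genes on that side and 1.12% on the higher side. All 9 members were tested. The 3 knockout libraries were all below mock for 4 members (Gys1, Pygl, Ppp1r3c and Epm2a), against 22.2% of all genes, and all above mock for 2 (Gyg and Ugp2), against 21.4%. The remaining 3, Gbe1, Pygb and Pygm, lay on both sides. Only the side was counted here, whatever the size of the difference. Epm2a had 15 counts in c11 against 16 in mock. The counting intervals of Epm2a in c11 and of Gyg in c22, among others, overlapped those of mock. The median fitted log2 fold change (knockout minus mock) was -0.51 over the members and 0.05 over all genes tested. The members' median was -0.16 without c11, -0.01 without c15 and -0.87 without c22, and -0.325 where genes needed a mean of 1 CPM. The value of -0.51 is that of 1 gene, Pygm (SE 1.21), whose knockout libraries lay on both sides of mock. Pygm also gave the medians without c11 and without c15, so they do not describe a level shared by the members. By library, the median log2 ratio of the members to mock was -0.35, -0.76 and 0.16 for c11, c15 and c22. The mock library had no replicate, so the test took its spread from the knockout libraries.

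**Figure D1:**
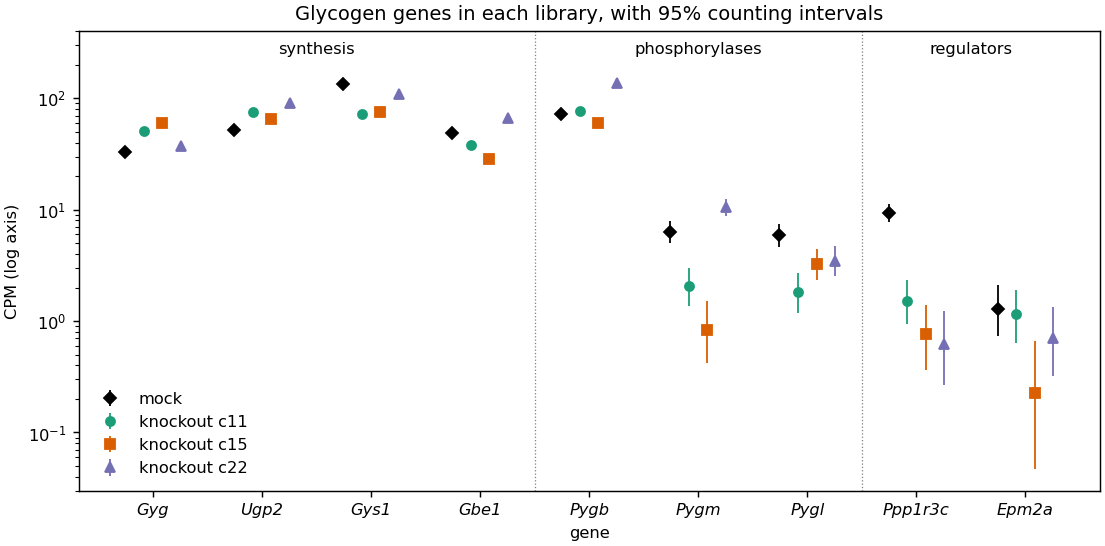
CPM (log axis) of each member in mock (black diamonds) and the knockout libraries c11, c15 and c22 (coloured), with exact 95% counting intervals. Ppp1r3c stands at 9.36 CPM in mock and at or below 1.53 CPM in the knockout libraries, while genes such as Gbe1 and Pygb have knockout libraries on both sides of mock.

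Ppp1r3c (ENSMUSG00000067279, chromosome 19, 36731731 to 36736653, GRCm38, minus strand) had the widest separation of the 9. Its mock count was 116, while c11, c15 and c22 had 20, 10 and 8 counts, or 9.36 CPM against 1.53, 0.76 and 0.62 CPM. The lowest bound of the mock counting interval, 7.73 CPM, lay above the highest bound of any knockout library, 2.36 CPM. The knockout mean of 0.97 ± 0.49 CPM (SD, n = 3) was 9.65-fold below mock, and the exact 95% counting interval of the ratio of summed counts ran from 6.63 to 14.3. The fitted log2 fold change was -3.26 (SE 0.61), with an unadjusted edgeR p of 0.00214 and an adjusted p of 0.356. The adjusted p was 0.161 with DESeq2 and 0.481 with limma-voom, so the difference did not pass in any of these. The counting interval leaves out the spread between tumours, which a lone mock library does not show. The summed skeletal muscle markers were also below mock in all knockout libraries. Among these libraries c22 had the highest muscle sum and the lowest Ppp1r3c level. The part of host RNA in the level of Ppp1r3c was not tested.

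By the distance between log2 CPM profiles over the 4 libraries, the genes most like Ppp1r3c among 10203 candidates were Bhlhe40, a transcriptional repressor gene, at a distance of 0.38, Mgll, the monoglyceride lipase gene, at 0.47, and Dbf4, the gene of a replication kinase subunit, at 0.70. Mgll had a mock level of 20.7 CPM, and c11, c15 and c22 had 4.74, 3.34 and 3.18 CPM. These distances describe 1 mock value against 3 others and carry no test.

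Epm2a (ENSMUSG00000055493, chromosome 10, 11343404 to 11459644, plus strand), the other regulator, was near the limit of detection. It had a mock count of 16, while c11, c15 and c22 had 15, 3 and 9 counts, which is 1.29 CPM against 1.15, 0.23 and 0.70 CPM. Library c11 was near the mock level and c15 was lowest. The ratio of summed knockout to mock counts was 0.535 with a counting interval of 0.278 to 1.06, so no difference was detectable at this depth. Its partner Nhlrc1, the gene of the ubiquitin ligase malin, had 14 counts in mock and 0, 4 and 0 counts in the knockout libraries (fitted log2 difference -3.35 with an SE of 1.41, adjusted p = 1.00 in edgeR), and it was picked out with its values known.

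Glycogen synthase was lower in all knockout libraries by a small amount. Gys1 (ENSMUSG00000003865, chromosome 7, 45434844 to 45456619, plus strand) had a mock level of 134 CPM, and c11, c15 and c22 had 72.4, 74.6 and 108 CPM. Library c22 lay closer to mock than the other 2 did. The knockout mean of 85.1 ± 20.1 CPM (SD, n = 3) was 1.58-fold below mock (fitted log2 difference -0.66 with an SE of 0.35, adjusted p = 1.00 in edgeR), with a 95% interval of the fitted log2 fold change from -1.53 to 0.21. Gys1 overlaps Ruvbl2 on the opposite strand, a gene with 3724 counts in mock, and no source used here says whether the counting used strand, so the level of Gys1 is uncertain to that extent. The profiles most like it were those of Arl4a, Prss23 and Hk1, at distances of 0.10, 0.10 and 0.10. Hk1, a hexokinase gene whose product makes the glucose 6-phosphate that feeds this pathway, had a mock level of 116 CPM and knockout levels of 68.4, 65.9 and 94.8 CPM.

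The 2 members that act before the synthase were on the other side of mock. Pgm1 of the wider pathway, which acts before Ugp2, was below mock in all knockout libraries, as described further below. Gyg (ENSMUSG00000019528, chromosome 3, 20122084 to 20155317, minus strand) had a mock level of 33.2 CPM, and c11, c15 and c22 had 51.2, 59.8 and 37.1 CPM. Ugp2 (ENSMUSG00000001891, chromosome 11, 21321138 to 21371201, minus strand) had a mock level of 51.5 CPM and knockout levels of 75.6, 65.0 and 91.2 CPM. For both genes all knockout libraries exceeded mock, c22 by the least for Gyg and by the most for Ugp2. For Gyg the counting interval of c22, 33.9 to 40.6 CPM, overlapped that of mock, 30.1 to 36.6 CPM. The knockout mean was 1.49-fold above mock for Gyg (log2 fold change 0.57, SE 0.40) and 1.50-fold above for Ugp2 (0.59, SE 0.35), and the edgeR adjusted p was 1.00 for each. Ugp2 overlaps an opposite-strand transcript, Gm12043, that had at most 48 counts in a library.

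Gbe1 (ENSMUSG00000022707, chromosome 16, 70313949 to 70569716, plus strand) differed more among the knockout libraries than between the groups. It had a mock level of 48.6 CPM, and c11, c15 and c22 had 38.1, 28.8 and 66.3 CPM, so c22 was above mock and the other 2 below. The fitted log2 difference was -0.13 with an SE of 0.52 (adjusted p = 1.00 in edgeR), its 95% interval ran from -1.41 to 1.15, and its sign turned to 0.10 without c15.

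**Figure D2:**
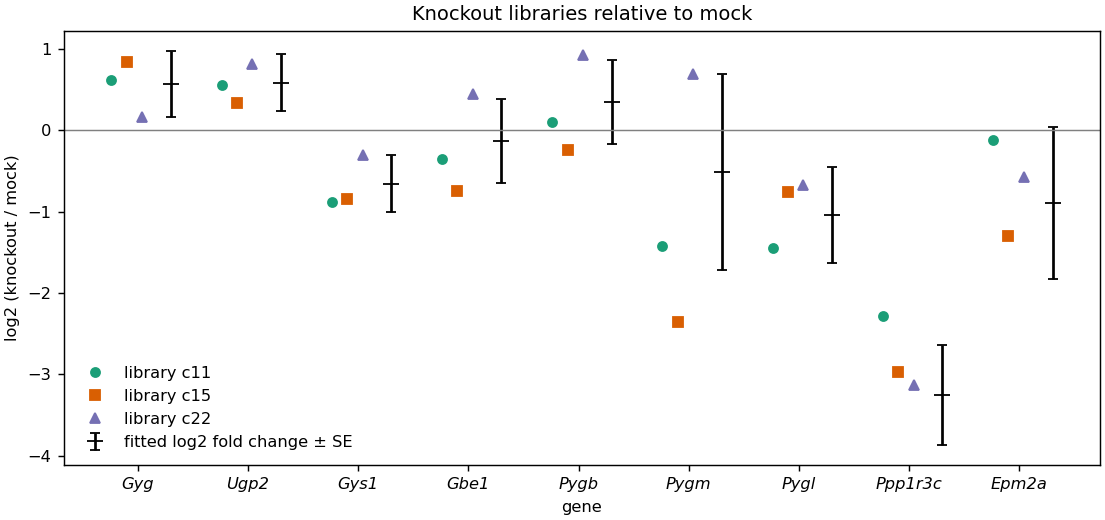
Log2 ratio of each knockout library to mock (coloured points, 0.5 CPM added to both) and the fitted log2 fold change with its SE (black) for the 9 members. All 3 points lie below 0 for Gys1, Pygl, Ppp1r3c and Epm2a and above 0 for Gyg and Ugp2. The c11 point of Epm2a is at -0.12.

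Among the phosphorylases the brain isoform gene made up most of the RNA in every library. Pygb (ENSMUSG00000033059, chromosome 2, 150786735 to 150831758, plus strand) had a mock level of 71.9 CPM, and c11, c15 and c22 had 77.0, 60.5 and 136 CPM. Library c22 stood furthest from mock, above it. The counting interval of c15, 56.4 to 64.9 CPM, lay below that of mock, 67.2 to 76.7 CPM. The fitted log2 difference was 0.34 with an SE of 0.52 (adjusted p = 1.00 in edgeR), and it was -0.06 without c22. Scaled per kilobase of exon, Pygb held 84.1% of the summed phosphorylase level in mock, and in c11, c15 and c22 it held 94.6%, 94.5% and 88.2%. These shares are described without a test, since 1 library against 3 cannot give an exact permutation p below 0.25.

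The muscle isoform Pygm (ENSMUSG00000032648, chromosome 19, 6384399 to 6398459, plus strand) varied most among the knockout libraries, by 12.6-fold from the lowest to the highest. It had a mock count of 79, while c11, c15 and c22 had 27, 11 and 136 counts, or 6.37 CPM against 2.06, 0.84 and 10.6 CPM. Library c22 was above mock and the other 2 were below it, so the groups overlapped (fitted log2 difference -0.51 with an SE of 1.21, adjusted p = 1.00 in edgeR). The fitted value was -2.13 without c22 and -0.01 without c15. Skeletal muscle markers were below mock in all knockout libraries for 10 of 10 tested of 12 listed, against 22.2% of all genes tested. Myh4, a fast myosin heavy chain gene, was at 31.3 CPM in mock, at 0 in c11 and c15 and at 5.12 CPM in c22. The summed markers were thus lowest in c15 and next lowest in c11, as Pygm was, but c22 had less of them than mock and more Pygm. The part of muscle RNA in the level of Pygm was not tested.

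The liver isoform Pygl (ENSMUSG00000021069, chromosome 12, 70190811 to 70231488, minus strand) was the least abundant phosphorylase per length in mock. It had a mock count of 73, while c11, c15 and c22 had 24, 43 and 45 counts, or 5.89 CPM against 1.83, 3.27 and 3.49 CPM. Every knockout library was below mock, c11 the most. The knockout mean of 2.87 ± 0.90 CPM (SD, n = 3) was 2.05-fold below mock (fitted log2 difference -1.04 with an SE of 0.59, adjusted p = 1.00 in edgeR), with a 95% interval from -2.50 to 0.42. The profiles most like it were those of C5ar1, Cyth4 and Lcp1, at distances of 0.10, 0.11 and 0.12, and C5ar1 encodes the complement C5a receptor and Lcp1 the actin-bundling protein L-plastin, both known from leukocytes. These distances, over 4 libraries, carry no test. Macrophage markers were below mock in all knockout libraries for 7 of 8, the exception being Cd68, against 22.2% of all genes tested. The sum of these markers, most of it Lyz2, was also lowest in c11. Hepatocyte markers were at or near 0 in each library, with Ttr and Fgb at 0 in all 4, and neutrophil markers summed to 10.4 CPM in mock, and c11, c15 and c22 had 4.66, 14.8 and 17.6 CPM. The part of macrophage RNA in the level of Pygl was not tested.

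**Figure D3:**
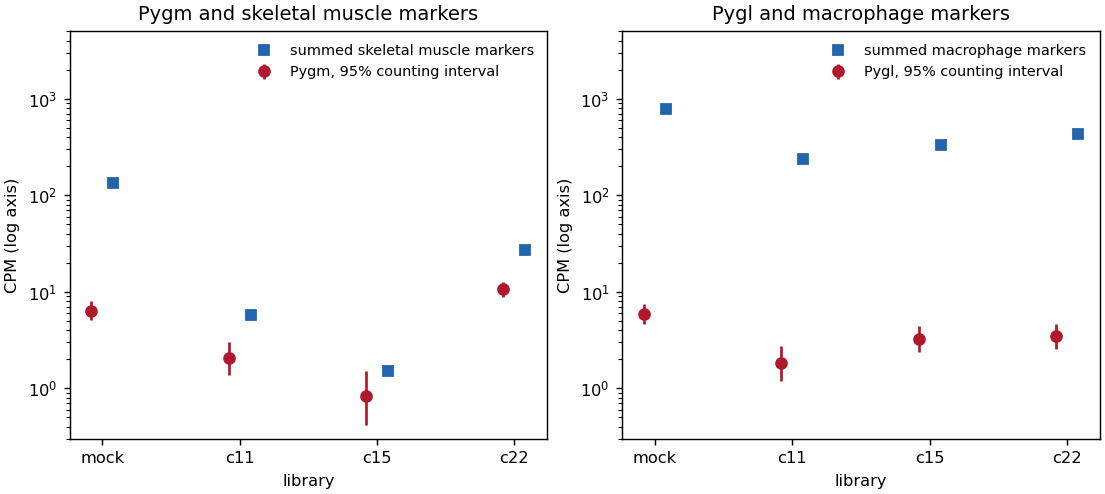
CPM (log axis) of Pygm beside the summed skeletal muscle markers (left) and of Pygl beside the summed macrophage markers (right) in each library, with exact 95% counting intervals for the 2 phosphorylase genes. Pygm is at 10.6 CPM in c22, above its 6.37 CPM in mock, where muscle markers are at 26.9 and 135 CPM.

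Levels of different genes were compared per kilobase of exon. In mock, Gys1 was highest at 28.0 CPM per kb, followed by Ugp2 at 16.8, Pygb at 14.9 and Gyg at 14.2, where the counting intervals of Ugp2 and Pygb and those of Pygb and Gyg overlapped. Gbe1 followed at 9.09 CPM per kb, Ppp1r3c at 3.43, Pygm at 1.98, Pygl at 0.85 and Epm2a at 0.39. In the knockout libraries the means were 25.2 CPM per kb for Ugp2, 21.1 for Gyg, 19.0 for Pygb and 17.8 for Gys1, and the ranges of each neighbouring pair among these overlapped. Gbe1 followed at 8.30 CPM per kb with a range apart from its neighbours. Pygm at 1.39 CPM per kb, Pygl at 0.42, Ppp1r3c at 0.36 and Epm2a at 0.21 overlapped from neighbour to neighbour. Gys1 thus had rank 1 of the 9 in mock and rank 4 by the knockout mean, and Ppp1r3c had ranks 6 and 8.

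The ratio of Gys1 to the summed phosphorylases, per kilobase, was 1.58 in mock, and c11, c15 and c22 had ratios of 0.894, 1.17 and 0.704. All 3 knockout libraries were below mock, with a mean of 0.922 ± 0.234 (SD, n = 3). In c22 the phosphorylase sum was high, at 32.1 CPM per kb against 17.8 in mock, while in c11 and c15 it was 16.9 and 13.3 CPM per kb and Gys1 was lower. This ratio and the family sums below were chosen after the values were seen and have no test. Across the 9 members c22 was the highest of the knockout libraries for 6 and c15 the lowest for 5.

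**Figure D4:**
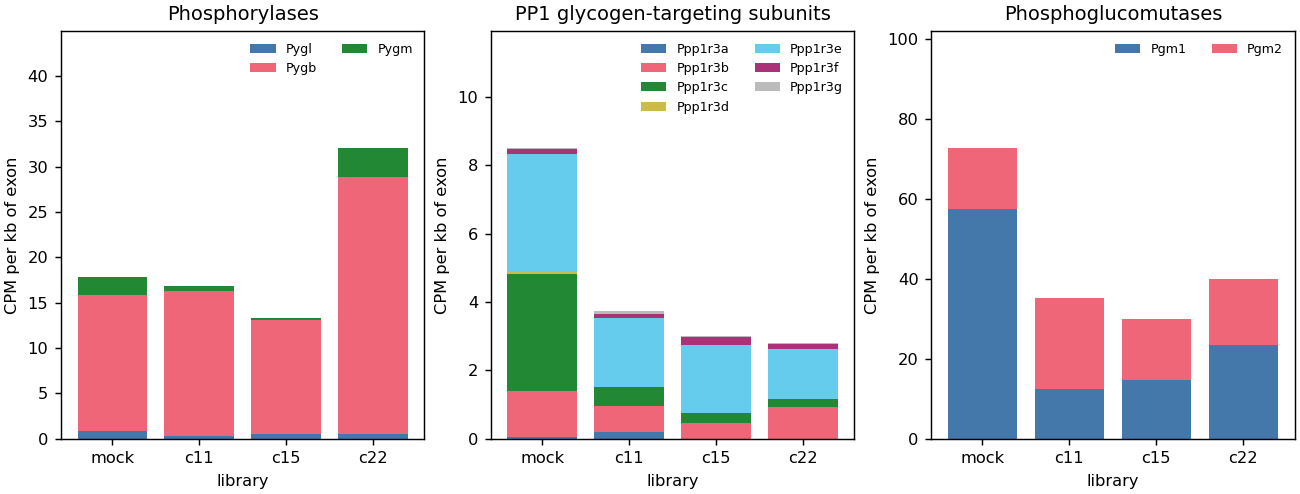
Summed level (CPM per kilobase of exon) of the phosphorylases, the glycogen-targeting subunits of protein phosphatase 1 and the phosphoglucomutases in each library, stacked by gene. The targeting subunits sum to 8.51 in mock and to 3.74, 3.01 and 2.81 in c11, c15 and c22.

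Of 28 further glycogen genes listed, 24 were tested and none passed the adjusted p in edgeR, DESeq2 or limma-voom. At an unadjusted edgeR p under 0.05 there were 3 on the lower side, Pgm1, Slc37a4 and Nhlrc1, against 2.56% of all genes tested, and 0 on the higher side, against 1.12%. The knockout libraries were all below mock for 9 of the 24, against 22.2% of all genes tested, and all above mock for 8, against 21.4%. The median log2 fold change was 0.14, beside 0.05 over all genes. It turned to -0.03 without c11, was 0.22 without c15 and 0.03 without c22.

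Pgm1, the phosphoglucomutase that links glucose 6-phosphate and glucose 1-phosphate, had a mock level of 168 CPM, and c11, c15 and c22 had 36.2, 42.8 and 68.6 CPM. All knockout libraries were far below mock and c22 was the nearest to it. The part of host RNA in the level of Pgm1 was not tested. The knockout mean of 49.2 ± 17.2 CPM (SD, n = 3) was 3.42-fold below mock (fitted log2 difference -1.77 with an SE of 0.41, adjusted p = 0.511 in edgeR), and DESeq2 gave an adjusted p of 0.0575. Pgm2, which acts mainly on phosphopentoses, had a mock level of 39.7 CPM and knockout levels of 59.3, 39.8 and 42.9 CPM, so Pgm1 made up 79.0% of the 2 genes' level per kilobase in mock and 35.1%, 48.8% and 58.6% in the knockout libraries.

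Slc37a4, the gene of the glucose 6-phosphate transporter of the endoplasmic reticulum, had a mock level of 41.8 CPM, and c11, c15 and c22 had 17.3, 19.7 and 15.6 CPM (fitted log2 difference -1.25 with an SE of 0.35, adjusted p = 0.756 in edgeR). The knockout libraries lay close together and apart from mock. Of the other targeting subunit genes of protein phosphatase 1 that were tested, Ppp1r3e and Ppp1r3b were below mock in all knockout libraries, while Ppp1r3a and Ppp1r3f, with at most 19 counts in a library, lay on both sides. Ppp1r3e had a mock level of 8.63 CPM and knockout levels of 5.05, 4.94 and 3.65 CPM, with a log2 fold change of -0.92 (SE 0.50), and Ppp1r3b had a mock level of 8.31 CPM and knockout levels of 4.59, 2.89 and 5.82 CPM (-0.91, SE 0.57). Per kilobase, Ppp1r3c made up 40.4% of the 7 targeting subunit genes Ppp1r3a to Ppp1r3g in mock and 15%, 9.25% and 8.10% in the knockout libraries. Ppp1r3e, at 40.5% in mock, was the largest part there in each of them, at 51.7% to 65.3%. The catalytic subunit genes Ppp1ca, Ppp1cb and Ppp1cc had log2 fold changes of -0.16 (SE 0.27), 0.05 (SE 0.37) and -0.14 (SE 0.29).

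On the higher side, Stbd1, whose product binds glycogen and takes part in its delivery to lysosomes, had a mock level of 37.5 CPM, and c11, c15 and c22 had 153, 58.4 and 59.2 CPM (fitted log2 difference 1.27 with an SE of 0.69, adjusted p = 1.00 in edgeR). All knockout libraries exceeded mock and c11 stood apart from the other 2. Gaa, the lysosomal acid alpha-glucosidase gene, had a mock level of 225 CPM and knockout levels of 310, 229 and 427 CPM, where c15 was near mock. Phkg1, a catalytic subunit gene of phosphorylase kinase, had 10 counts in mock and 23, 20 and 25 in the knockout libraries, a log2 difference of 1.10 (SE 0.78). The liver synthase gene Gys2 and the glucose 6-phosphatase gene G6pc had at most 1 count in a library.

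**Figure D5:**
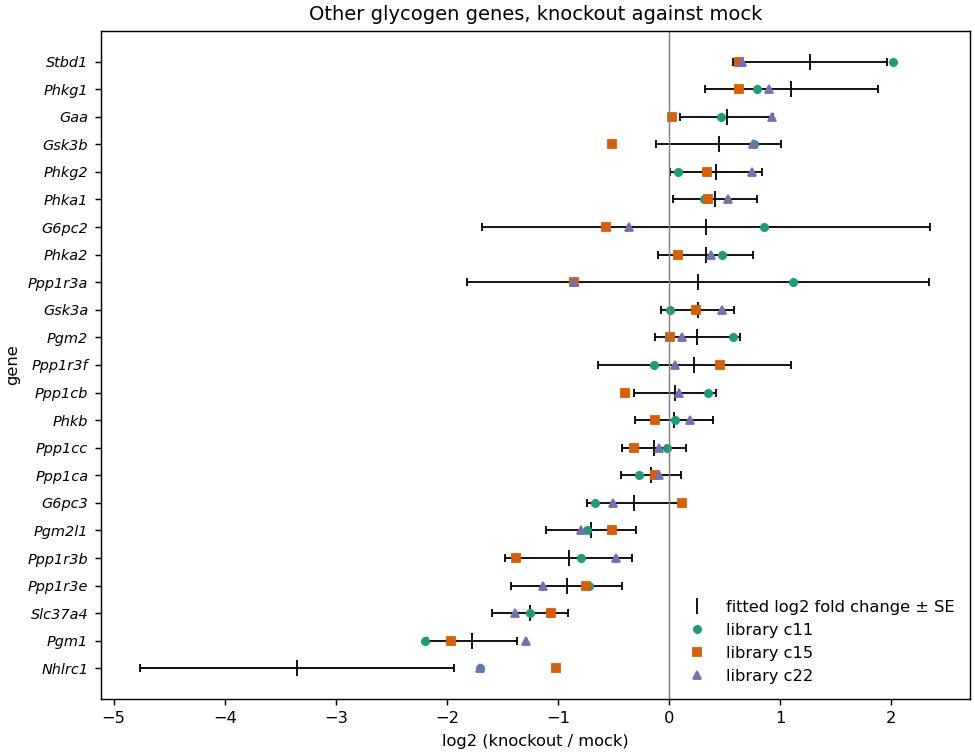
Fitted log2 fold change (knockout minus mock, black, with SE) and the log2 ratio of each knockout library (coloured, 0.5 CPM added to both) for 23 of the 24 tested genes of the wider pathway. Pgm1, Slc37a4 and Nhlrc1, the last with at most 14 counts in a library, have all 3 libraries below -1. Stbd1 has c11 at 2.02 and the other 2 near 0.6.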

How the data were processed

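Kits for poly(A) selection and directional libraries were used on all 4 samples, per the labels' protocols. The values deposited by the authors are raw read counts for each Ensembl gene. The submitters' processing notes list the build GRCm38, HISAT2 2.1.0, featureCounts 1.6.3, SAMtools 1.9, Trimmomatic 0.38 and FastQC 0.11.7. Their settings are not stated in these sources. Exon lengths came from GENCODE M21, which held 55227 of the IDs, and promoters from RefSeq. The 9 members, the gene lists and the naming rule were chosen with earlier results of these data known.

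After filterByExpr, 15706 genes with 99.9% of counts remained. They were TMM-scaled and tested 2-sided by quasi-likelihood (robust, legacy off) in edgeR 4.0.16 under R 4.3.3, with p-values adjusted by Benjamini-Hochberg and a threshold of 0.05. Residual degrees of freedom were 2, with a median prior of 3.77. The SE came from the F statistic. DESeq2 1.42.0, limma 3.58.1, other scalings and filters and leaving out each knockout library were alternatives. Pairs of libraries differed by a chi-square per gene of at least 46.0, far beyond sampling noise. Pairs with mock ran from 46.0 (c15) to 71.1 (c22). Pairs of knockout libraries ran from 48.1 (c11 and c22) to 86 (c15 and c22), so these differed from one another about as much as from mock. No label ties the tumours to separate animals, and p-values then reflect only how these libraries vary. Counting intervals cover counting error only, since reads carry no molecular identifiers.

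All members were named. Of the other glycogen genes, the rule named those past the threshold, otherwise the 3 highest and 3 lowest fold changes whose mean reached 1 CPM, and a fixed few, of which Pgm1, Pgm2, Gaa and Stbd1 are given and 1 gene, counted in the list, is not reported here. Likeness was the Euclidean distance of centred log2(CPM + 0.5) for the 3 members with the smallest p, among genes with a mean of at least 5 CPM, without predicted genes, clones and pseudogenes. Ppp1r3b, the other phosphatase subunit genes, Nhlrc1, Gys2, G6pc and marker genes were named beside it after their values were seen. Summed adipocyte markers reached at most 0.887 CPM and endothelial markers at most 1.69 CPM in a library. Fibroblast markers summed to 93.7 CPM in mock, and c11, c15 and c22 had 20.3, 81.4 and 94.7 CPM. In c22 that sum rested on Pdgfra, at 64.8 CPM against 15.2 CPM in mock, and the other 4 markers were below mock there.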

Additional observations from a re-analysis of the deposited data

How the results depend on the processing

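No member passed an adjusted p of 0.05 under any of 11 alternatives (10 for Epm2a, which a mean of at least 1 CPM removed), and the lowest adjusted p was 0.161, for Ppp1r3c. Its log2 fold change ranged from -3.74 to -3.02. Of 98 member values 96 kept their sign. The 2 that did not were Gbe1, from -0.54 without c22 to 0.102 without c15, and Pygb, from -0.0633 without c22 to 0.57 without c15. These changes came from leaving out a knockout library. The other alternatives used all the same libraries again, so a kept sign there says little about stability. The members' median ranged from -0.87 without c22 to -0.0135 without c15 when 1 knockout library was left out, and that of the other glycogen genes from -0.0306 without c11 to 0.22 without c15, while it was 0.24 with no filter, -0.0634 with limma-voom and 0.0382 where genes needed a mean of 1 CPM. Over all genes, edgeR called 0 higher and 1 lower, 4 lower with no filter, 0 lower when any 1 knockout library was left out, and 0 lower with limma-voom or with edgeR's legacy dispersion method, an alternative chosen after seeing the data. DESeq2 called 48 higher and 66 lower. With 2 CPM added in place of 0.5, the log2 ratios of Ppp1r3c were -1.69, -2.04 and -2.12 in c11, c15 and c22. Mock has 1 library and could not be left out. No paired analysis was possible because no label pairs the lone mock library with a knockout line. Depth limits Epm2a most, with 3 to 16 counts in a library.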
